A study of Homo sapiens with 6 samples.

Results

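The genes described here are 10 enzymes and enzyme subunits that make or remove superoxide and peroxides, measured by RNA-seq in the KYSE70 human esophageal squamous carcinoma cell line and in a derivative edited to disrupt NRF2. They were taken by name, and were chosen with earlier results of these data known. They are the glutathione peroxidases GPX1, GPX2, GPX3, GPX4 and GPX8, the superoxide dismutases SOD1 and SOD2, and catalase (CAT). The oxidase DUOX1 and the oxidase subunit CYBA complete the 10. The deposited table listed 58884 genes, all 10 among them, and 9 of the 10 were among the 15994 genes tested, that is, genes averaging 10 or more normalized counts across the 6 libraries. GPX3 did not pass that filter.

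KYSE70 is an established cell line with a mutant, constitutively active NRF2, the transcription factor encoded by NFE2L2. The derivative, NRF2null-KYSE70, was made with CRISPR-Cas9 directed at NFE2L2 in the same line, and is a monoclonal line in which the study still saw a smaller NRF2 protein. Neither line was treated with an agent, and 3 libraries were sequenced from each. The comparison is therefore of 1 edited clone with its parental line, and effects of losing NRF2 and of picking a clone cannot be told apart. The labels do not state that the libraries of a line came from separate cultures, so each p-value measures the spread between these libraries, which may be technical.

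Superoxide dismutases convert superoxide to hydrogen peroxide, SOD1 mainly in the cytosol and SOD2 in the mitochondrial matrix. Catalase in peroxisomes and the glutathione peroxidases then reduce the peroxide, the latter at the expense of glutathione, and most members of the glutathione peroxidase family in humans carry selenocysteine in the active site, GPX8 being a cysteine enzyme. DUOX1 and the NADPH oxidases act in the opposite sense and produce superoxide or hydrogen peroxide, and CYBA (p22phox) stabilises some of the NADPH oxidases. NRF2 activates genes through antioxidant response elements in their regulatory DNA, and GPX2 is a textbook example of such a gene.

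The promoters of GPX2, the member that fell most, and GPX8, the member that rose most among those called, are shown because the letters at one of them match the core of the antioxidant response element and those at the other do not. Each line holds the 250 bases before the RefSeq start site on GRCh38.p14, read 5′ to 3′ on the strand of the gene. GPX2 lies on the minus strand (chr14:64942746-64942995 for the bases shown) and GPX8 on the plus strand (chr5:55159921-55160170).
GPX2: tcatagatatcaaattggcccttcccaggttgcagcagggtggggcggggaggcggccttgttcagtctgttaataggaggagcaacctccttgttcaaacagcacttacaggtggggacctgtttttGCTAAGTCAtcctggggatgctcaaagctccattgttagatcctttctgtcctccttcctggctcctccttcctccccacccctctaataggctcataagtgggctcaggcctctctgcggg
GPX8: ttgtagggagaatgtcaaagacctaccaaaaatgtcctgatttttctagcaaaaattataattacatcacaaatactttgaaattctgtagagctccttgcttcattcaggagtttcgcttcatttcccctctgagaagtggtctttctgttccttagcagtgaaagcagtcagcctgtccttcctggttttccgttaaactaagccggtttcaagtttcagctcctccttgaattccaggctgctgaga
Capitals mark the reverse complement of TGACTTAGC, the single match to TGACNNNGC (N is any base) that was found in GPX2, beginning at position -122 from the start site. The search covered both strands of windows from 250 bases before to 50 bases after the start, and TGACNNNGC was present in 13.3% of all 35116 RefSeq windows and at 16.1% of the genes with a window. Of the 9 members with a window (SOD1 had none), GPX2 alone held a match. The related letters TGACTCA, which can overlap TGACNNNGC only where the bases after TGAC allow both, occurred in 4.95% of windows and in none of these 9 genes. A match to TGACNNNGC was present in 22.5% of the 679 genes lower in NRF2null-KYSE70 by at least 1 on the log2 scale, in 20.1% of the 727 higher genes and in 19.5% of all 10734 tested genes with a window. These matches describe letters in a short window and show no binding.

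The libraries held 52072801 to 63975313 reads. The first NRF2null-KYSE70 library stood apart from the other two of its line, with a chi-square per degree of freedom of 23.0 and 23.4 against them, whereas those 2 differed from each other by 4.59. It was the lowest library of its line for 6 of the 7 members with a mean of at least 100 (GPX1, GPX2, GPX4, GPX8, SOD1 and CAT). Over all tested genes it was the lowest for 36.2% and the highest for 40.8%. The first KYSE70 library was likewise the lowest of its line for 5 of the 7 members. Each member's call, and each list's count, is also given for the fit without the first NRF2null-KYSE70 library where the result changed. NFE2L2 itself was measured at a mean of 9928 ± 102 normalized counts in KYSE70 (SD, n = 3) against 6093 ± 319 in the edited line, 61.4% of the parental level, a log2 fold change of -0.71 (limma adjusted p = 9.37e-08). Its RNA was still abundant, and a gene-level count does not show whether the edited transcript encodes NRF2. All 8 squamous epithelial markers were detected in both lines, with a summed level of 347211 to 352731 in KYSE70 and 247533 to 251108 in NRF2null-KYSE70, and 6 of the 8 fell while KRT17 and KRT6A rose. Fibroblast markers summed to 1384 to 1618 and 485 to 638 with COL1A2 and DCN at 0, endothelial markers to 133 to 149 and 275 to 450.3 with KDR at 0, and leukocyte markers to 1.81 to 16.9 and 40.2 to 53.7 with MPO among those at 0. The part of these shifts in the results was not tested.

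Among the 9 tested members, 3 fell (GPX1, GPX2 and SOD1), 2 rose (GPX4 and GPX8) and 4 were not called at an adjusted p under 0.05. Over all tested genes 28.3% were lower and 29.3% higher by the same rule (57.6% in either direction), so a count of 5 of 9 was close to the share in the whole table. GPX2 was the single member that also passed an absolute log2 fold change of 1, as did 14.7% of tested genes in either direction 7.43% in the lower and 7.23% in the higher direction. The median log2 fold change was 0.08 for the members and -0.01 for all tested genes, and 6 members had no overlap between the libraries of KYSE70 and NRF2null-KYSE70, as did 63.4% of tested genes. A negative fold change denotes a lower value in NRF2null-KYSE70, and log2 values were taken after adding 1 to each normalized count, which understates the change of low genes.

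**Figure D1:**
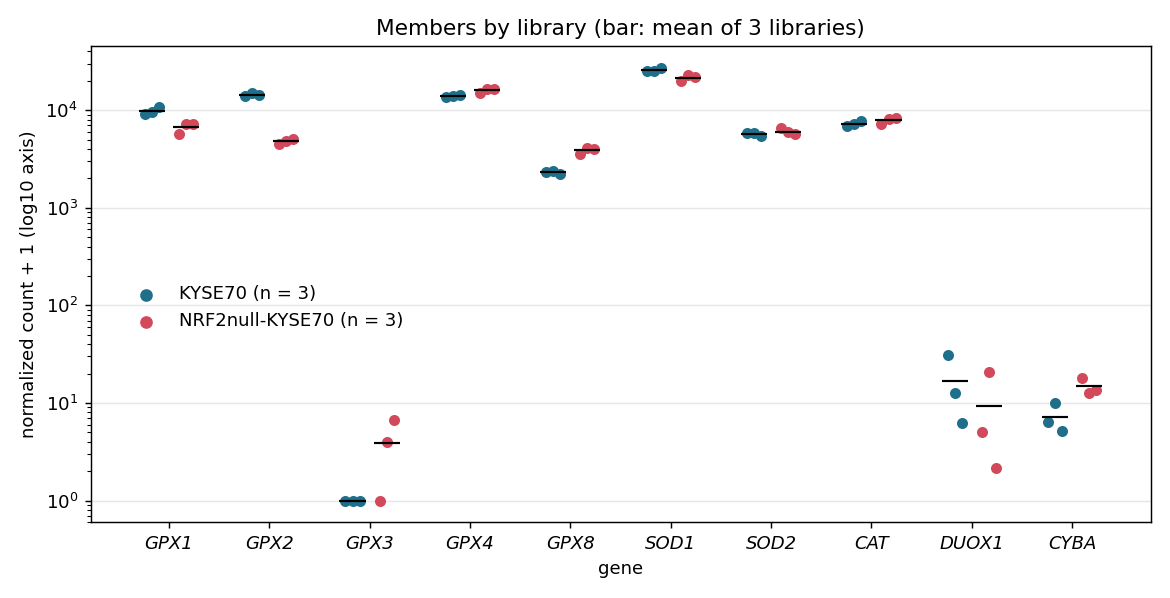
Normalized counts plus 1 of the 10 genes (log10 vertical axis) in each library, with KYSE70 in blue, NRF2null-KYSE70 in red and a black bar at the mean of 3 libraries. The points of the lines are apart for GPX1, GPX2, GPX4, GPX8, SOD1 and CYBA, and overlap for SOD2, CAT and DUOX1, while GPX3 lies at 0 in all KYSE70 libraries.

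GPX2, the glutathione peroxidase of epithelia such as that of the gut, fell to 33.4% of its KYSE70 level. Its normalized counts (ENSG00000176153, chr14:64939152-64942746, minus strand, GRCh38) were 13961, 14852 and 14469.8 in the KYSE70 libraries and 4559, 4844 and 5045 in the NRF2null-KYSE70 libraries. The lowest KYSE70 library was thus far above the highest NRF2null-KYSE70 library, and the means of 14427 ± 447 and 4816 ± 244 (SD, n = 3 each) differed by a log2 fold change of -1.58 (SE 0.051, 95% interval -1.69 to -1.47, limma adjusted p = 7.94e-11). The 40 nearest tested protein-coding genes, 20 on each side, had a median of 0.27 on the log2 scale, so that GPX2 stood 1.85 below its surroundings (centred value -1.85). GPX2 lies in the region of CHURC1 on the opposite strand and shares no exon base with it. The letters of its promoter are those printed above with the TGACTTAGC match.

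GPX1, the widespread cytosolic and mitochondrial glutathione peroxidase, fell to 68.5% of the KYSE70 level. It was counted at 9197, 9576 and 10666 in KYSE70 and 5770.3, 7205 and 7195 in NRF2null-KYSE70 (ENSG00000233276, chr3:49357174-49358605, minus strand). Again no library of one line reached the values of the other, and the log2 fold change was -0.55 (SE 0.082, 95% interval -0.73 to -0.37, limma adjusted p = 8.89e-05). The median over its 40 neighbouring genes on chromosome 3 was also -0.55, a value at or below which lay 3.37% of the neighbourhoods of 15913 genes. After subtraction of that median, taken as a fixed value without the spread of the neighbours, the change was 0.00 (95% interval -0.18 to 0.18, adjusted p = 0.984). GPX1 was thus not separable from the genes around it in these lines. Of its 1432 exon bases, 572 are shared on the same strand with the gene model ENSG00000290318, which was not analysed here. The processed pseudogene GPX1P1 was listed at 13.2 to 15.0% of GPX1 in every library and fell by the same log2 value of -0.55 (adjusted p = 0.00113), which leaves the division of reads between these copies uncertain. With the GPX1P1 reads added, GPX1 kept its log2 fold change of -0.55 (adjusted p = 0.000104).

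GPX4, which reduces lipid hydroperoxides within membranes and protects cells from ferroptosis, was slightly higher in NRF2null-KYSE70. Its normalized counts were 13700.2, 13947 and 14446 in KYSE70 and 15026, 16513 and 16683 in NRF2null-KYSE70 (ENSG00000167468, chr19:1103982-1106791, plus strand). The groups did not overlap, and GPX4 rose to 115% of its KYSE70 mean, a log2 fold change of 0.19 (SE 0.051, 95% interval 0.08 to 0.31, limma adjusted p = 0.00543). This call was lost with equal library totals (0.12, adjusted p = 0.0684), with quantile normalization (0.07, adjusted p = 0.349) and after subtraction of the neighbours' median of 0.15 (0.04, adjusted p = 0.509).

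GPX8, a membrane protein of the endoplasmic reticulum that uses peroxide in oxidative protein folding, rose 1.68-fold. It was found at 2318, 2402 and 2232 normalized counts in KYSE70 and at 3601, 4098 and 4004 in NRF2null-KYSE70 (ENSG00000164294, chr5:55160167-55167297, plus strand). Every NRF2null-KYSE70 library exceeded every KYSE70 library, with a log2 fold change of 0.75 (SE 0.062, 95% interval 0.62 to 0.88, limma adjusted p = 4.35e-07). Its neighbours had a median of 0.15 and the centred change was 0.60 (adjusted p = 4.07e-06).

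GPX3, the secreted plasma glutathione peroxidase, was at the limit of detection. No read was assigned to it in any KYSE70 library, which allows up to 3 reads in each, and the NRF2null-KYSE70 libraries held 0, 3 and 5 reads (ENSG00000211445, chr5:151020591-151028988, plus strand). No fold change is given at this depth.

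The change in GPX2 altered the makeup of the glutathione peroxidase transcripts. Per kilobase of canonical transcript, GPX2 made up 35.8 ± 1.01% of the summed level of the 5 genes in KYSE70 but 16.0 ± 0.467% in NRF2null-KYSE70 (mean ± SD of 3 libraries), and GPX4 made up 37.8 ± 0.431% and 57.9 ± 0.843%. The share of GPX1 was 25.0 ± 1.14% and 22.9 ± 1.27%, and that of GPX8 was 1.42 ± 0.085% and 3.20 ± 0.0566%. The libraries of the lines were apart for the shares of GPX2, GPX4 and GPX8 and, on this length, of GPX1, and the sum itself was 96.4, 100.3 and 103% of the KYSE70 mean in the KYSE70 libraries and 68.7, 77.3 and 78.2% in the NRF2null-KYSE70 libraries. The shares depended on the length used: over merged exons GPX4 went from 29.5% to 48.6% and GPX1 overlapped between the lines (25.8 to 27.9% and 24.4 to 27.0%), whereas over coding bases GPX4 went from 34.5% to 51.4% and GPX8 from 5.37% to 11.8%. Shares sum to 100 by construction, so that a rise of one need not be a rise in counts.

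**Figure D2:**
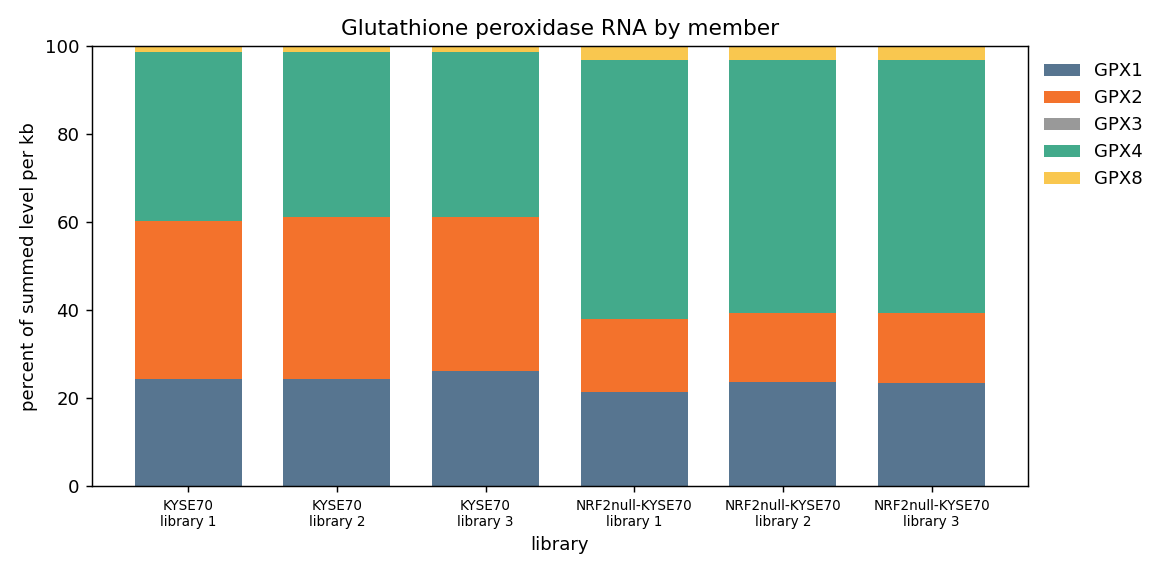
Share of each glutathione peroxidase (percent of the level summed over the 5 genes, normalized counts per kilobase of canonical transcript) in each of the 6 libraries, stacked to 100%. GPX2 takes 35.8% of the sum on average in KYSE70 and 16.0% in NRF2null-KYSE70, and GPX4 takes 37.8% and 57.9%.

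Within a library, the ratio of GPX2 to GPX1 normalized counts was 1.36 to 1.55 in KYSE70 and 0.672 to 0.790 in NRF2null-KYSE70, so the order of these genes by count was turned around. The ratio of GPX2 to GPX4 was 1.00 to 1.06 in KYSE70 and 0.293 to 0.303 in NRF2null-KYSE70, and that of GPX8 to GPX4 was 0.155 to 0.172 and 0.240 to 0.248. None of these ranges overlapped between the lines. Such ratios within a library do not depend on how the libraries were scaled, and no test was run on them.

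SOD1, the cytosolic copper and zinc enzyme and the most abundant of the 10 per kilobase, fell to 82.5% of the KYSE70 level. Its normalized counts were 25104, 25258 and 27355 in KYSE70 and 19752, 22717.5 and 21669 in NRF2null-KYSE70 (ENSG00000142168, chr21:31659666-31668931, plus strand). The groups were separate but the first NRF2null-KYSE70 library contributed most, and the log2 fold change was -0.28 (SE 0.058, 95% interval -0.40 to -0.15, limma adjusted p = 0.00113) with all libraries and -0.22 without that library. Its neighbours had a median of 0.01, and the centred value was -0.29. The pseudogenes SOD1P1, SOD1P2 and SOD1P3 had no reads.

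SOD2, the manganese enzyme of mitochondria, was measured at 5890.05, 5821 and 5427 normalized counts in KYSE70 and 6512, 5957 and 5670.3 in NRF2null-KYSE70. The libraries overlapped and the log2 fold change of 0.08 had a 95% interval of -0.05 to 0.21 (limma adjusted p = 0.265), a range that leaves room for a small change in either direction. The table lists it as ENSG00000112096, an identifier not found in GENCODE v44, and its position was taken by symbol (chr6:159669069-159762529, minus strand). Its exons share 437 bases with WTAP and 133 with ACAT2 on the opposite strand and 939 with SOD2-OT1 on the same strand, and whether the authors counted by strand is not given in the sources used here. A second entry with the symbol SOD2, of at most a few reads per library, was not used.

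The ratio of SOD1 to SOD2 counts was 4.26 to 5.04 in KYSE70 and 3.03 to 3.82 in NRF2null-KYSE70, without overlap. The relation between the cytosolic dismutase and catalase moved likewise, with a ratio of SOD1 to CAT counts of 3.47 to 3.64 in KYSE70 and 2.59 to 2.77 in NRF2null-KYSE70.

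Catalase, the haem enzyme that splits hydrogen peroxide in peroxisomes, was found at 6904, 7273 and 7751 normalized counts in KYSE70 and at 7182, 8204 and 8379 in NRF2null-KYSE70 (ENSG00000121691, chr11:34438934-34472060, plus strand). The groups overlapped through the first NRF2null-KYSE70 library, and the log2 fold change was 0.11 (SE 0.064, 95% interval -0.03 to 0.25, limma adjusted p = 0.149). Without that library it was 0.18 (adjusted p = 0.0036), which raised the number of called members from 5 to 6. The median of the neighbouring genes was 0.14, and after its subtraction the value for CAT was -0.03 (adjusted p = 0.732).

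**Figure D3:**
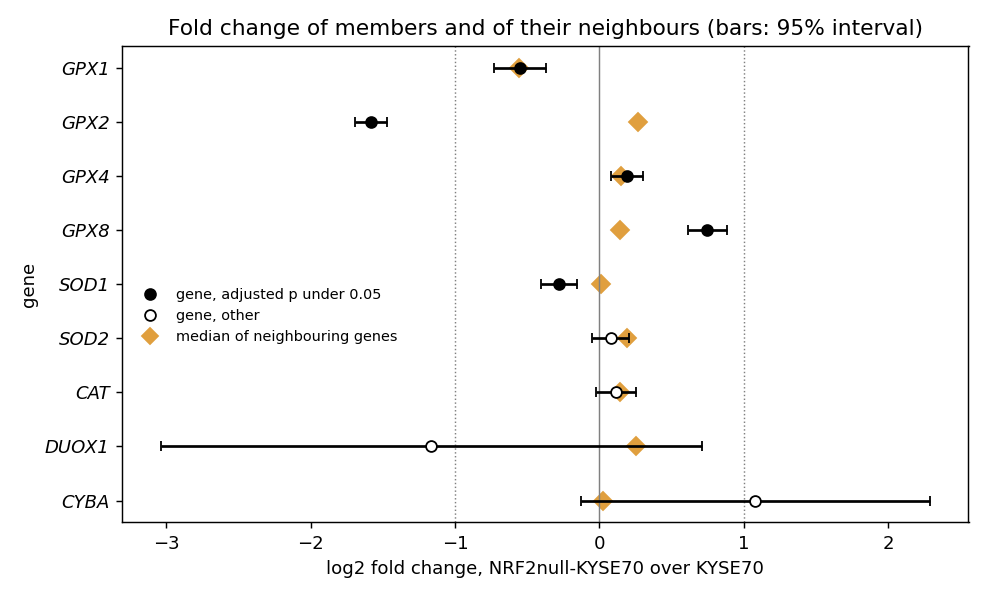
Log2 fold change of the 9 tested genes (circles, filled where the limma adjusted p was under 0.05, bars the 95% interval) and the median of their neighbouring protein-coding genes (diamonds), on a horizontal axis of NRF2null-KYSE70 over KYSE70. GPX2 at -1.58 lies far from its neighbours at 0.27, whereas GPX1 and its neighbours both lie at -0.55.

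The oxidase genes were near the limit of detection in both lines. DUOX1, which releases hydrogen peroxide at the apical surface of epithelia, had 34, 13 and 5 reads in the KYSE70 libraries and 4, 20 and 1 in those of NRF2null-KYSE70 (ENSG00000137857, chr15:45129933-45165576, plus strand). The groups overlapped, and the log2 fold change of -1.16 had a 95% interval of -3.04 to 0.71 (limma adjusted p = 0.27), so that no difference was detectable at this depth. Of its exon bases, 554 are shared with ENSG00000259539, a long noncoding RNA on the opposite strand, for which 3 reads were listed over the KYSE70 libraries and 32 over the NRF2null-KYSE70 libraries.

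CYBA had 6, 10 and 4 reads in the KYSE70 libraries and 17, 12 and 11 in those of NRF2null-KYSE70 (ENSG00000051523, chr16:88643275-88651083, minus strand). Every NRF2null-KYSE70 library held more reads than any KYSE70 library, but the log2 fold change of 1.08 had a 95% interval of -0.13 to 2.29 (limma adjusted p = 0.115). The adjusted p was 0.0248 when the variance was not fitted as a trend over the mean level. The mean over the 6 libraries, 10.03, was just above the filter.

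Levels between genes were compared per kilobase of canonical transcript. In KYSE70 the order was SOD1 at 28945 ± 1405 normalized counts per kilobase, GPX4 at 16488 ± 446, GPX2 at 15648 ± 485, GPX1 at 10915 ± 849, CAT at 3190.36 ± 185, GPX8 at 621 ± 22.7 and SOD2 at 403 ± 17.6 (SD, n = 3), with CYBA, DUOX1 and GPX3 under 10. GPX4 and GPX2 overlapped in KYSE70, and the other neighbours in that order among the 7 abundant genes did not. In NRF2null-KYSE70 SOD1 stood at 23888 ± 1680.04, GPX4 at 18888 ± 1072, GPX1 at 7479 ± 918 and GPX2 at 5223 ± 265, so GPX1 and GPX2 exchanged ranks 3 and 4, while CAT at 3458 ± 282, GPX8 at 1045 ± 70.8 and SOD2 at 427 ± 30.2 kept ranks 5, 6 and 7. The place of SOD2 rests on its canonical transcript of 14167 bases, most of it untranslated. Per kilobase of coding sequence (666 bases), SOD2 reached 8578 in KYSE70 and 9079 in NRF2null-KYSE70 and would rank 5 and 4. The ranks of GPX2 also depended on the length. In KYSE70 and NRF2null-KYSE70, respectively, GPX2 ranked 2 and 4 over merged exons, and 2 and 5 over coding bases.

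Among the other peroxidases and dismutases, the abundant PRDX1 fell. Of 11 listed genes 7 were tested, 4 fell and 2 rose, beside 28.3% lower and 29.3% higher over all tested genes, the median log2 fold change being -0.22, and none changed by 1 or more. Without the variance trend 3 fell and 0 rose, and with quantile normalization 4 fell and 0 rose. With edgeR or equal library totals 4 fell and 1 rose. The same counts were found when any library except the first NRF2null-KYSE70 library was left out. After subtraction of the neighbours' medians 3 fell and 1 rose. The peroxiredoxin PRDX1, a thiol peroxidase of the cytosol, was counted at 107534, 110129 and 114163 in KYSE70 and 70935, 75495 and 74536 in NRF2null-KYSE70, a log2 fold change of -0.59 (adjusted p = 5.18e-07). PRDX2 (-0.38, adjusted p = 0.000133) and PRDX4 (-0.35, adjusted p = 0.00104), the peroxiredoxins of the cytosol and the endoplasmic reticulum, fell as well, and after subtraction of their neighbours' medians they stood at -0.23 and -0.67. The 2 genes that rose were also peroxiredoxins, named after their values were seen. They were PRDX3 (0.25, limma adjusted p = 0.00599, centred value 0.01) and PRDX6 (0.12, limma adjusted p = 0.0474, centred value 0.25). CCS, the copper chaperone that loads SOD1, had a log2 fold change of -0.01 (adjusted p = 0.893) with overlapping libraries. SOD3, the extracellular dismutase, had no reads, and GPX7 had 1 read in all KYSE70 libraries together and 22 in NRF2null-KYSE70.

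The NADPH oxidases and their subunits were mostly silent, with 10 of 16 genes below the filter. NOX1, NOX3 and the DUOX2 maturation factor DUOXA2 had no reads. Over the 3 libraries of KYSE70 and of NRF2null-KYSE70, respectively, CYBB (NOX2) had 2 and 6 reads, NOX4 0 and 6, DUOX2 3 and 11, and the DUOX1 partner DUOXA1 4 and 5. No catalytic subunit that CYBA could stabilise was above a few reads per library. Among the 6 tested genes, 4 rose and 1 fell, beside 29.3% and 28.3% of all tested genes, and the median was 0.47. After subtraction of the neighbours' medians 3 were higher and 0 lower. RAC2, a small GTPase that activates the NOX2 complex in leukocytes, rose from 563, 542 and 627 to 1478, 1794 and 1649.6 normalized counts (2.84-fold, limma adjusted p = 2.43e-08). NOXA1, an activator of NOX1, fell by 0.61 on the log2 scale (adjusted p = 0.0155), a call that was lost when the first NRF2null-KYSE70 library or KYSE70 library 2 or 3 was left out, and after subtraction of its neighbours' median (-0.33, adjusted p = 0.166). NCF1, outside the rule for named genes because of its low mean and chosen after its values were seen, had 8 reads in KYSE70 and 308 in NRF2null-KYSE70 (log2 fold change 5.30, SE 0.595), and it has near-identical pseudogene copies that may share its reads. The leukocyte marker PTPRC had 1 and 125 reads in the same libraries, and its part in these changes was not tested.

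Genes for placing selenocysteine into proteins such as GPX1, GPX2 and GPX4 moved in both directions. All 11 were tested, 1 fell and 6 rose (7 called, beside 57.6% of all tested genes), and the median log2 fold change was 0.19. The calls numbered 6 without the first NRF2null-KYSE70 library, and 4, with 1 lower and 3 higher, both without the variance trend and after subtraction of the neighbours' medians. After that subtraction the lower gene was EEFSEC (centred value -0.29, adjusted p = 0.00126), named after its values were seen. In the main fit EEFSEC was among the genes that rose (0.17, limma adjusted p = 0.0249). SEPHS2, which makes the selenium donor, fell to 58.5% of the KYSE70 level (-0.77, adjusted p = 7.48e-08), but the genes around it had a median of -0.67 and the call was lost after its subtraction (-0.10, adjusted p = 0.126). SARS1, the seryl-tRNA synthetase that charges the selenocysteine tRNA with serine, rose to 176% (0.82, adjusted p = 1.35e-08), and SECISBP2L rose by 0.73 (adjusted p = 2.37e-06, 0.29 above its neighbours). SECISBP2, the protein that binds the selenocysteine insertion element of the mRNAs, rose by 0.24 (adjusted p = 0.00374), a call that was lost after subtraction of its neighbours' median of 0.16 (0.08, adjusted p = 0.291).

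Of the 19 other selenoproteins, 16 were tested, 7 fell, 4 rose and 5 were not called, with a median of 0.09, beside 28.3% lower and 29.3% higher over all tested genes. Without the first NRF2null-KYSE70 library 7 fell and 5 rose. MSRB1, a methionine sulfoxide reductase, fell to 51.3% (-0.96, adjusted p = 2.64e-07, neighbours -0.56, centred value -0.40). The thioredoxin reductases TXNRD3 (0.96, adjusted p = 3.17e-08, 0.49 above its neighbours) and TXNRD2 (0.75, adjusted p = 1.89e-07) rose. The cytosolic TXNRD1, named after its values were seen, fell by 0.65 on the log2 scale, and its neighbours had a median of -0.50 (centred value -0.15, adjusted p = 0.0162).

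For catalase, the peroxisomal import factors and the peroxide-forming oxidases were examined, and 15 of 18 were tested, of which 2 fell, 5 rose and 8 were not called, with a median of 0.10. The 7 called of 15 were below the 57.6% called over all tested genes, and no test of that difference was run. PEX5, the receptor that carries catalase into the peroxisome, rose by 0.23 on the log2 scale (adjusted p = 0.0105). Peroxide-forming enzymes also rose. XDH, the xanthine dehydrogenase and oxidase, was counted at 65.8, 88.9 and 73.8 in KYSE70 and 358, 364 and 245 in NRF2null-KYSE70 (log2 fold change 2.06, SE 0.197, adjusted p = 1.74e-06), and PIPOX, a peroxisomal amino acid oxidase, rose to 175% (0.80, adjusted p = 4.22e-08).

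**Figure D4:**
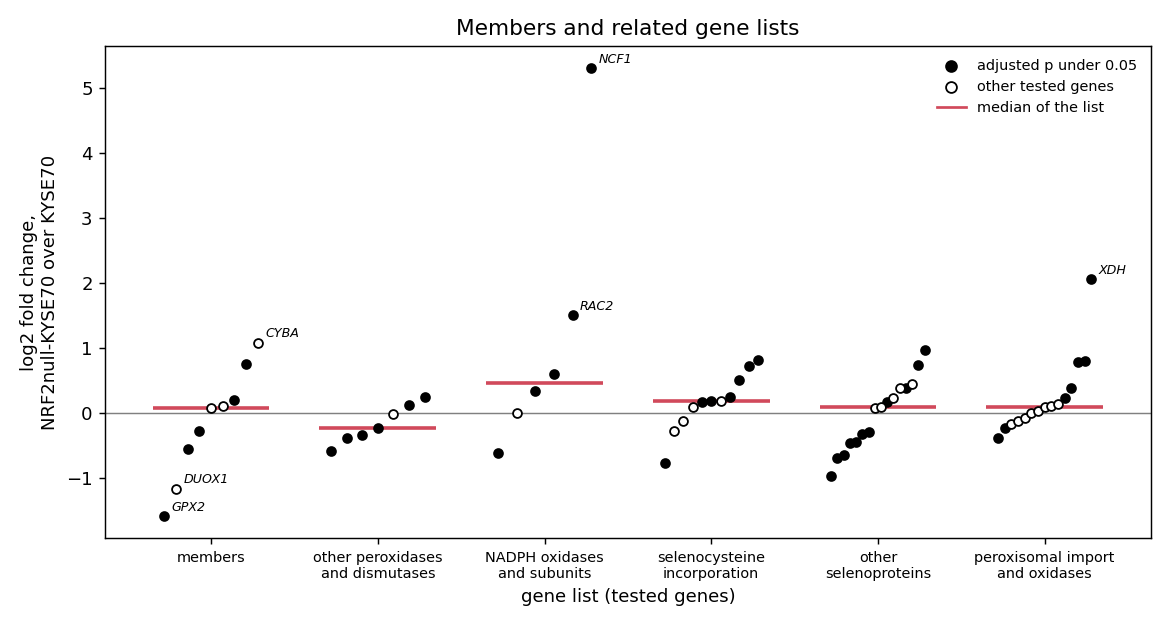
Log2 fold change (vertical axis) of each tested gene in the 10 chosen genes and in the 5 related lists, filled where the limma adjusted p was under 0.05, with a red line at the median of each list. Medians run from -0.22 for the other peroxidases and dismutases to 0.47 for the NADPH oxidases and subunits, where NCF1 lies at 5.30.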

How the data were processed

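Total RNA libraries of 3 KYSE70 and 3 NRF2null-KYSE70 samples were aligned by the authors with STAR 2.6.90c to hg38 and counted per gene with featureCounts 1.5.1, after cutadapt 1.12 and FastQC 0.11.5. The deposited signal values are gene counts divided by DESeq2 size factors. Strand and multi-mapping settings are not given in the sources used here. Dividing by the value of 1 read in each library (0.889 to 1.14) gave whole reads for 100% of values (tolerance 0.01). Column names show the line but no replicate number, so libraries were numbered in column order.

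Genes averaging 10 or more normalized counts were tested on log2(value + 1) with limma 3.58.1 (eBayes with a mean-variance trend, R 4.3.3), with p-values adjusted by the Benjamini-Hochberg method over all 15994 genes and thresholds of 0.05 and an absolute log2 fold change of 1. On the recovered reads edgeR 4.0.16 called 2350 genes and DESeq2 1.42.0 called 2341, against 2344. Scripts were tested on simulated data. Positions came from GENCODE v44, and promoters from RefSeq on GRCh38.p14. Named genes were the 10 members, NFE2L2, fixed partner genes and, from each list, up to 3 genes with the largest change among those called, without overlap between the lines and with a mean of at least 100, some of which are not reported here. The members and lists were chosen with earlier results of these data known. Alternatives covered the pseudocount, filter, scaling, test, left-out libraries and subtraction of the neighbours' median. In that subtraction the median was taken as a fixed value. Centred intervals and p-values therefore leave out the spread of the neighbours and are too narrow and too small to that extent.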

Additional observations from a re-analysis of the deposited data

How the results depend on the processing

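No paired analysis was possible because the columns carry no replicate number, so the fit with a replicate block was not run. GPX2 (-1.85 to -1.54), GPX8 (0.60 to 0.81), SOD1 (-0.42 to -0.22), DUOX1 (-2.05 to -0.41, adjusted p from 0.0621 to 0.695, not called) and NFE2L2 (-0.80 to -0.67) kept their direction and their side of the threshold under every alternative run. The count of genes past both thresholds was 2344, 2228 to 2346 with a library left out, 1511 with a filter at a mean of 50 (13004 genes tested) and 970 with the treat test against a log2 fold change of 1. The lower share of these calls was 50.7%, and 55.9% with equal library totals.

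Subtraction of the neighbours' median (neighbour-centring) gave log2 fold changes of 0.0023 for GPX1 (adjusted p = 0.984, range over alternatives 1.3e-09 to 0.984), 0.042 for GPX4, -0.11 for SOD2 and -0.029 for CAT, and left 3 members, 3 NADPH oxidase genes and 4 selenocysteine incorporation genes called. GPX4 was also not called with quantile normalization (0.066) and equal totals (0.12). Without the variance trend 2 members passed both thresholds, CYBA being added (1.08, adjusted p = 0.0248, range 0.0248 to 0.285), and 3 other peroxidases and 4 selenocysteine incorporation genes were called. With a library left out CAT ranged from 0.072 to 0.18 (adjusted p from 0.0036). The cause of these shifts was not tested. Counts of a few reads limit GPX3, DUOX1 and CYBA.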

Other observations

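The letters TGACTCA, the consensus of AP-1 factors, were held by no window of a member. At least 1 promoter window held them in 9.08% of the 727 genes higher in NRF2null-KYSE70 by at least 1 on the log2 scale. The share was 5.01% of the 679 lower genes and 5.01% of all 10734 tested genes with a window. This is a description of letters, and no test was run on it.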
